A study of Rattus norvegicus with 4 samples.

Results

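The genes described are 30 natural killer receptor and cytotoxic granule genes of the rat, chosen by name from a one-colour Agilent array. A gene entered when a probe other than a control carried its symbol, and the Ly49 receptors were left out of this list. Probes of that name were found for 29 of the 30 genes, as 34 probes printed as 79 spots. Of these, 27 genes had a probe that cleared the scanner software's background flag (well above background) on both liposome arrays or both saline arrays, and they were tested among 12858 genes in all. Klrc1 was well above background on the second saline array alone, Ncr3 on none of the 4 arrays, and no probe was named Eomes.

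The RNA came from spleen cells of male WKAH rats, 8 to 12 weeks old, 24 h after an injection. The groups were liposome (2 arrays) and saline, the control (2 arrays). In both, cells bearing MHC class II were first removed with OX-6 beads and cells bearing CD11b/c were then collected with OX-42, so every array carries the same sort. The titles number the arrays of each group exp1 and exp2 without saying what the number marks, and the arrays are called liposome 1, liposome 2, saline 1 and saline 2 here. Markers of B cells, which bear MHC class II, were still measured for 11 of 12 genes after the depletion. What the liposomes were made of is not given in the sources used here. Nothing states that the arrays of a group came from separate animals, so the p-values measure only the spread between 2 arrays, which may be technical.

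Natural killer cells are lymphocytes that kill infected or altered cells without prior priming. They weigh signals from inhibitory and activating receptors, many of them C-type lectin-like proteins encoded side by side in the natural killer gene complex. When activation prevails, they release granules in which perforin opens the target membrane and granzymes, which are serine proteases, start cell death. They also secrete interferon gamma and chemokines, and cytotoxic T cells share much of the granule machinery.

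All 12 lectin-like receptor genes of this list with a probe lay on chromosome 4 in the arrays' rn4 coordinates. The 11 other than Klrg1 fell between 165637803 and 167092842. Receptors in this cluster can be close in sequence, so the probes of Klrb1a and Klrb1b are shown to let a reader judge how far they can tell both transcripts apart. Over 53 aligned bases they matched at 47 and differed at 6 positions, G12A, T33C, T35A, T39A, T43C and T47C, with Klrb1a's base first and positions counted from the first aligned base, which is base 1 of the Klrb1a probe and base 8 of the Klrb1b probe. The capitals mark those positions. The Klrb1a probe lies at chr4:165637803-165637862 and the Klrb1b probe at chr4:165699496-165699555, both on the minus strand of rn4, as the array files give them.
Klrb1a: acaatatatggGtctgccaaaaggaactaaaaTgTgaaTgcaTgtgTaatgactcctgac
Klrb1b: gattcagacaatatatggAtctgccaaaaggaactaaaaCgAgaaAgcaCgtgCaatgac
Other members with copies of similar sequence, such as the Klrc genes and Gzmb with Gzmc, may also share hybridisation signal. The probe used for Gzmc lists a Gzmb transcript among its accessions, and the probe of Klrc3 lists the Klrc2 transcript.

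Promoters of 6 granule and chemokine genes are shown because their products carry out the killing and signalling, and because 5 of them had the same order over the 4 arrays while Xcl1 followed another. Each is the 250 bases before the gene's start in RefSeq's GRCr8 annotation, which held a promoter for 24 of the 30 genes. The windows are Gzmb at chr15:34462470-34462719 on the minus strand, Gzmc at chr15:34440007-34440256 on the minus strand, Gzmk at chr2:46582016-46582265 on the minus strand, Gzmm at chr7:10667257-10667506 on the minus strand, Prf1 at chr20:29788790-29789039 on the plus strand and Xcl1 at chr13:79785441-79785690 on the minus strand. Capitals mark matches, on either strand, to a T-box half-site (GGTGTGA), a RUNX motif (TGTGGTT), an ETS motif (AGGAAGT) and an AP-1 motif (TGANTCA). No marked match overlaps another. Each of the 6 holds a marked match, so they do not stand for all members. Gzma, Nkg7 and Ccl5, which had the same order over the arrays as the 5, are not shown.
Gzmb: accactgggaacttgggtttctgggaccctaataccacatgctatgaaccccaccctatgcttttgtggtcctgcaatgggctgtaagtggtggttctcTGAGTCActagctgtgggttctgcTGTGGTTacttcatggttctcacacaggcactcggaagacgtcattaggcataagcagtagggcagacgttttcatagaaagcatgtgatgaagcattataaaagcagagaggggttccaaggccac
Gzmc: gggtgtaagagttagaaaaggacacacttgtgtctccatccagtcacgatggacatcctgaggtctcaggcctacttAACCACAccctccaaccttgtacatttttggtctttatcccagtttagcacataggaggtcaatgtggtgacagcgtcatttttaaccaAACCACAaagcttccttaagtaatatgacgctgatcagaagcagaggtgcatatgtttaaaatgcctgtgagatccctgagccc
Gzmk: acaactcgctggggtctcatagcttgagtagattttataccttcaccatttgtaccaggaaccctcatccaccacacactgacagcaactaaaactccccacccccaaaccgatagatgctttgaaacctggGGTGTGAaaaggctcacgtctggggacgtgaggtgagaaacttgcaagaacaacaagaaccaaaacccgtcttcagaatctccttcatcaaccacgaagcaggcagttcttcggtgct
Gzmm: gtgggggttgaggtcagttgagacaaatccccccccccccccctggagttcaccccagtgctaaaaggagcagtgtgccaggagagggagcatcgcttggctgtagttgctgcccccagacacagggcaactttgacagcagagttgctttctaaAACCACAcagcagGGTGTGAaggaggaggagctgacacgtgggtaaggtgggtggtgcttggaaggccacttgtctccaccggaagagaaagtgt
Prf1: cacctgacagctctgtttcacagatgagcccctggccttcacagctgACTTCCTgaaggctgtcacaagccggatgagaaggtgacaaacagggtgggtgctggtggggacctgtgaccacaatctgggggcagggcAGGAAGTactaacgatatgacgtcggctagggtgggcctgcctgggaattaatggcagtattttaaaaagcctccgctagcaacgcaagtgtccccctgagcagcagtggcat
Xcl1: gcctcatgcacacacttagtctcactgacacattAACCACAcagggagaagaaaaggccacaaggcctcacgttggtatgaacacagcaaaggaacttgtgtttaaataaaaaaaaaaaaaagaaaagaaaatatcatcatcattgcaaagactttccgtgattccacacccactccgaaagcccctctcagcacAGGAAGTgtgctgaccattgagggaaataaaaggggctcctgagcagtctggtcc
The T-box half-site stood in 2 of the 24 member promoters, those of Gzmk and Gzmm, against 3.22% of 33469 rat promoters. The RUNX motif stood in 7 of the 24, against 4.59% of all promoters. These were Gzma, Gzmb, Gzmc, Gzmm, Xcl1 and the untested Ncr3 and Eomes. The ETS motif stood in 8, against 7.08%, namely Klrb1a, Klrb1b, Klrb1c, Klri1, Klri2, Prf1, Xcl1 and Faslg. The lectin-like receptor genes among them lie in one cluster, and the Klrb1a and Klrb1b promoters were 61.5% identical, so these matches need not be independent. The AP-1 motif stood in the Gzmb promoter alone among the 24, against 6.34% of all. A match is a description of letters in this window and shows no binding.

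Most of these genes read higher on exp2 than on exp1 and, by mean, lower on liposome than on saline arrays. None passed the limma test between treatments, which was fitted without the title number. A fit with the number is given under the dependence on processing. For 20 of the 27 tested, against 3.75% of all genes tested, saline 2 gave the highest reading, followed by liposome 2, saline 1 and liposome 1. Values are processed intensities in arbitrary units, scaled so that each array had the same 75th percentile. Differences are on the log2 scale, where 1 is a 2-fold difference, and are given as liposome minus saline or as exp2 minus exp1. A difference between 1 array and 1 array has no replicate check and no test. In RNA from a mixed fraction, fewer natural killer cells and less RNA per cell cannot be told apart.

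**Figure D1:**
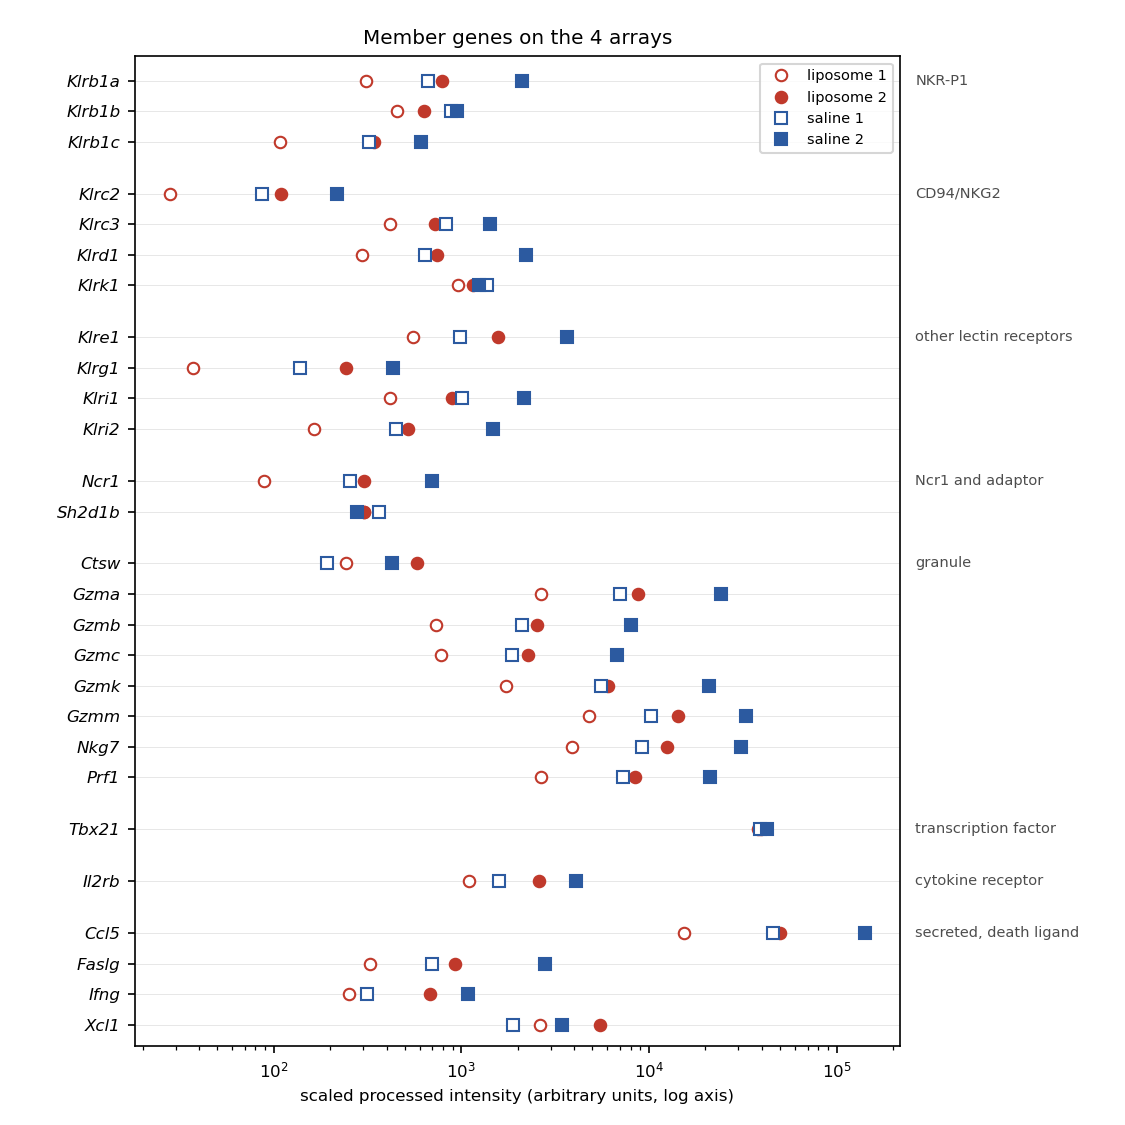
Scaled processed intensity of the 27 genes tested (log axis, arbitrary units), 1 point for each array: circles are liposome, squares saline, open symbols exp1 and filled symbols exp2. Of the 27 genes, 20 lie in the order liposome 1, saline 1, liposome 2, saline 2 from left to right.

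Klrb1a encodes NKR-P1A, the activating receptor by which rat natural killer cells are usually recognised. It read 309 on liposome 1 and 793 on liposome 2, against 664 on saline 1 and 2094 on saline 2. The groups overlapped, since liposome 2 lay above saline 1. The exp2 minus exp1 difference was 1.36 within liposome and 1.66 within saline. The liposome minus saline difference over all 4 arrays was -1.25 ± 0.74 (SE, n = 2 each; limma adjusted p = 0.307).

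Klrb1b encodes an inhibitory relative that recognises a C-type lectin-related ligand on other cells. It read 455 and 629.8 on the liposome arrays, against 883 and 952 on the saline arrays. Both liposome arrays lay below both saline arrays, and exp2 exceeded exp1 by only 0.47 within liposome and 0.11 within saline. Its liposome minus saline difference was -0.78 ± 0.19 (SE, n = 2 each; limma adjusted p = 0.0771). This was the smallest adjusted p among the 27 genes. Although its probe shares 47 bases with that of Klrb1a, its readings followed another order. Klrb1c, a further receptor of the NKR-P1 family, read 108 and 342 on liposome arrays, against 321 and 608 on saline arrays, and resembled Klrb1a in that liposome 2 exceeded saline 1.

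Klrd1 encodes CD94, the partner chain with which the NKG2 receptors read class Ib MHC molecules. It read 296 and 746 on the liposome arrays, against 638 and 2214 on the saline arrays. The highest array was saline 2 and the lowest liposome 1, and exp2 exceeded exp1 by 1.33 within liposome and by 1.79 within saline. Klrc2, the activating NKG2C chain, read 27.9 and 110 on the liposome arrays, against 86.6 and 217 on the saline arrays. It was dim but well above background on every array, with exp2 minus exp1 differences of 1.97 within liposome and 1.33 within saline.

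Klrc3, an NKG2E-type chain, had a probe that read 416 and 722 on the liposome arrays, against 834 and 1414 on the saline arrays. This probe also lists the Klrc2 transcript, so both transcripts may contribute to its reading. Its groups did not overlap, and the liposome minus saline difference was -0.99 ± 0.39 (SE, n = 2 each; limma adjusted p = 0.171). Klrc1, the inhibitory NKG2A chain, was not tested, and its probe read 19.4 and 35.6 on the liposome arrays, against 36.6 and 89.2 on the saline arrays. Only the highest of these, saline 2, was well above background.

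Klrk1 encodes NKG2D, an activating homodimer that binds stress-induced ligands and signals through the adaptor Hcst. Its brighter probe read 956 and 1154 on liposome arrays, against 1367 and 1241 on saline arrays. These groups did not overlap, yet the difference was small, -0.31 ± 0.14 (SE, n = 2 each; limma adjusted p = 0.208). Its second probe read 279 and 421 on liposome arrays, against 814 and 587 on saline arrays. On that probe the difference was -1.01 with a limma adjusted p of 0.0932, so the probes gave the same direction and unlike sizes. Within saline both Klrk1 probes read lower on exp2 than on exp1, with differences of -0.14 and -0.47.

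Klre1 encodes a receptor chain that pairs in the rat with the inhibitory Klri1 or the activating Klri2. Klre1 read 554 and 1575 on the liposome arrays, against 978 and 3639 on the saline arrays. Klri1 read 419 and 889 on liposome arrays, against 1011 and 2146 on saline arrays. Klri2 read 163 and 522 on the liposome arrays, against 451 and 1477 on the saline arrays. Saline 2 was the highest array for the chain and both partners, and liposome 1 the lowest. For Klri1 the groups did not overlap, and the exp2 minus exp1 difference was the same in both groups to 2 decimals, 1.09. The liposome minus saline differences were -1.01 ± 0.83 for Klre1, -1.27 ± 0.53 for Klri1 and -1.48 ± 0.83 for Klri2 (SE, n = 2 each; limma adjusted p = 0.444, 0.189 and 0.284).

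Klrg1, an inhibitory receptor for cadherins found on mature natural killer and effector T cells, read 36.9 and 242 on the liposome arrays, against 138 and 434 on the saline arrays. Its exp2 minus exp1 difference within liposome, 2.71, was the largest of the 27 genes, and within saline it was 1.65. The 2.71 rests on the dim liposome 1 reading. That reading was well above background, but Klrc1 at 36.6 on saline 1 was not. Ncr1 encodes NKp46, an activating receptor that marks natural killer cells across mammals. It read 89.3 and 302 on liposome arrays, against 255 and 701 on saline arrays. Liposome 2 lay above saline 1, and the liposome minus saline difference was -1.36 ± 0.79 (SE, n = 2 each; limma adjusted p = 0.299). Ncr3, which encodes the activating receptor NKp30, read between 5.73 and 15.3 on the 4 arrays and was not well above background on any. Sh2d1b, an adaptor of the SLAM-family receptors, read 303 and 301 on the liposome arrays, against 365 and 278 on the saline arrays. Its 4 readings lay close together, and the exp2 minus exp1 difference was -0.01 within liposome and -0.40 within saline.

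Gzma encodes granzyme A, a tryptase-like protease of the granule. It read 2670.4 and 8749 on the liposome arrays, against 7028 and 24082 on the saline arrays. Saline 2 stood highest and liposome 1 lowest, with liposome 2 above saline 1. Gzmb encodes granzyme B, which cleaves after aspartate. It read 734 and 2531 on the liposome arrays, against 2096 and 7996 on the saline arrays. Gzmk, a second tryptase-like granzyme, read 1732 and 6017 on liposome arrays, against 5527 and 20955 on saline arrays. Both followed the array order of Gzma.

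The liposome minus saline difference of Gzmk, -1.74 ± 0.91, was the most negative of the 27 genes (SE, n = 2 each; limma adjusted p = 0.261). It was -1.67 within exp1 and -1.80 within exp2. Exp2 exceeded exp1 in Gzmk by 1.80 within liposome and by 1.92 within saline. Gzmb gave -1.59 ± 0.91 for liposome minus saline (SE, n = 2 each; limma adjusted p = 0.294), and its second probe -1.49. Gzma gave -1.43 ± 0.85 (SE, n = 2 each; limma adjusted p = 0.310).

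Gzmc, a further granzyme gene near Gzmb on chromosome 15, read 779 and 2276 on the liposome arrays, against 1865 and 6759 on the saline arrays. A second Gzmc probe, one that passed the background filter, read 70.0 and 149.7 on the liposome arrays, against 93.9 and 474 on the saline arrays. Both probes gave the order of Gzma, with differences of -1.42 and -1.04 for liposome minus saline. Gzmm, a granzyme that cleaves after methionine, read 4775 and 14256 on liposome arrays, against 10207 and 32904 on saline arrays. It too was highest on saline 2.

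Prf1 encodes perforin, the pore-forming protein. It read 2662 and 8436 on the liposome arrays, against 7312 and 21276 on the saline arrays. The exp2 minus exp1 difference was 1.66 within liposome and 1.54 within saline, and the liposome minus saline difference was -1.40 ± 0.78 (SE, n = 2 each; limma adjusted p = 0.287). Nkg7, a granule membrane protein needed for efficient granule release, read 3893 and 12517 on liposome arrays, against 9219 and 30835 on saline arrays. Perforin, Nkg7 and all 5 granzymes thus shared the order saline 2, liposome 2, saline 1, liposome 1.

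Ctsw departed from the other granule genes. It encodes cathepsin W, a cysteine protease of natural killer and cytotoxic T cells, and read 242 and 577 on liposome arrays, against 193 and 426 on saline arrays. Within each number the liposome array was the higher, and the difference over all arrays was 0.38 ± 0.59 (SE, n = 2 each; limma adjusted p = 0.680). Exp2 still exceeded exp1, by 1.26 within liposome and 1.14 within saline.

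**Figure D2:**
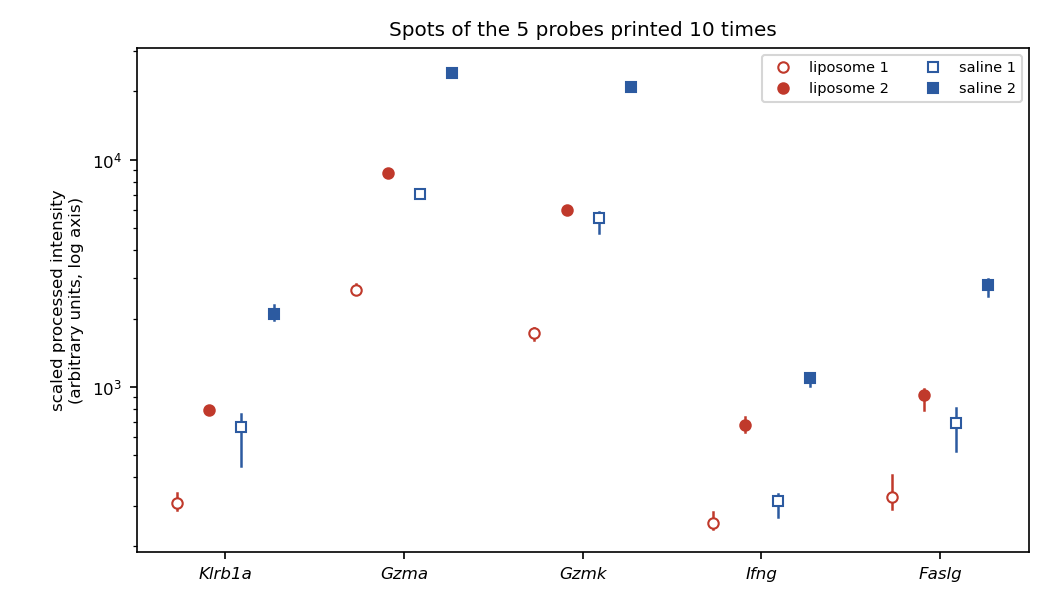
Scaled processed intensity (log axis, arbitrary units) of the 5 genes whose probe was printed 10 times, as the value of each array with a line from its lowest to its highest spot. The spots of a probe on an array differed by an SD between 0.0180 and 0.231 on the log2 scale, less than the differences between exp1 and exp2 in either group.

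The spread between spots was small beside the spread between arrays. Klrb1a, Gzma, Gzmk, Ifng and Faslg each had a probe printed 10 times, and the SD of its spots on an array lay between 0.0180 and 0.231 on the log2 scale. On Gzma the spots of saline 2 ran between 23621 and 24591, and those of saline 1 between 6902 and 7251. This measures printing and scanning within an array and not the spread between rats or preparations.

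Tbx21 encodes T-bet, a transcription factor of natural killer and type 1 T cells. It read 38366 and 39667 on the liposome arrays, against 38935 and 42367 on the saline arrays. It barely varied, with exp2 minus exp1 differences of 0.05 within liposome and 0.12 within saline, while Ncr1 and the granzymes varied more than 2-fold. Its 1 probe was brighter than those of perforin and the granzymes on every array, and whether it reads T-bet alone was not tested. Tbx21 counts among the 20 genes of the shared order, although its readings lay close together. Il2rb encodes the beta chain through which interleukin 2 and interleukin 15 act on natural killer cells. It read 1102 and 2597 on liposome arrays, against 1580 and 4072 on saline arrays, and the difference was -0.58 ± 0.64 (SE, n = 2 each; limma adjusted p = 0.558).

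Ccl5, a chemokine kept in stores by natural killer and memory T cells, read 15431 and 50080.0 on the liposome arrays, against 45860.2 and 142153 on the saline arrays. It kept the order of the granzymes, with a liposome minus saline difference of -1.54 ± 0.81 (SE, n = 2 each; limma adjusted p = 0.265). Faslg encodes the ligand that kills through the death receptor Fas. It read 327 and 922 on liposome arrays, against 695 and 2805 on saline arrays, and exp2 exceeded exp1 by 1.49 within liposome and 2.01 within saline. Ifng, which encodes interferon gamma, read 251 and 681 on liposome arrays, against 314 and 1091 on saline arrays. Its liposome minus saline difference was -0.32 within exp1, -0.68 within exp2 and -0.50 ± 0.79 over all arrays (SE, n = 2 each; limma adjusted p = 0.689).

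Xcl1, like Ctsw, read higher on the liposome arrays. It encodes lymphotactin, which draws dendritic cells bearing Xcr1. Its brighter probe read 2624 and 5483 on the liposome arrays, against 1878 and 3437 on the saline arrays. The liposome minus saline difference was 0.58 ± 0.48 (SE, n = 2 each; limma adjusted p = 0.447), and the second Xcl1 probe gave 0.54. Exp2 exceeded exp1 by 1.06 within liposome and by 0.87 within saline. The direction by number was thus that of the granzymes and the direction by treatment the opposite one.

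Set beside all genes tested, the difference by number was large. Exp2 was at least 2-fold above exp1 within liposome for 22 of the 27 genes, where 1.28% of the 12858 genes were. Within saline this held for 20 of 27, against 2.18% of all genes. It held in both groups for 20 of 27, against 0.661% of all, or 85 genes. The 20 made up 23.5% of those 85 genes and 74.1% of the 27. None of the 27 was 2-fold or more lower on exp2 in both groups, against 0.124% of all genes. The 7 that did not reach 2-fold in both were Klrb1b, Klrb1c, Klrc3, Klrk1, Sh2d1b, Tbx21 and Xcl1. The median exp2 minus exp1 difference of the 27 genes was 1.51 within liposome and 1.63 within saline, against -0.02 and -0.04 for all genes tested. The first of these rests on 2 arrays and the second on another 2, and neither has a test.

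**Figure D3:**
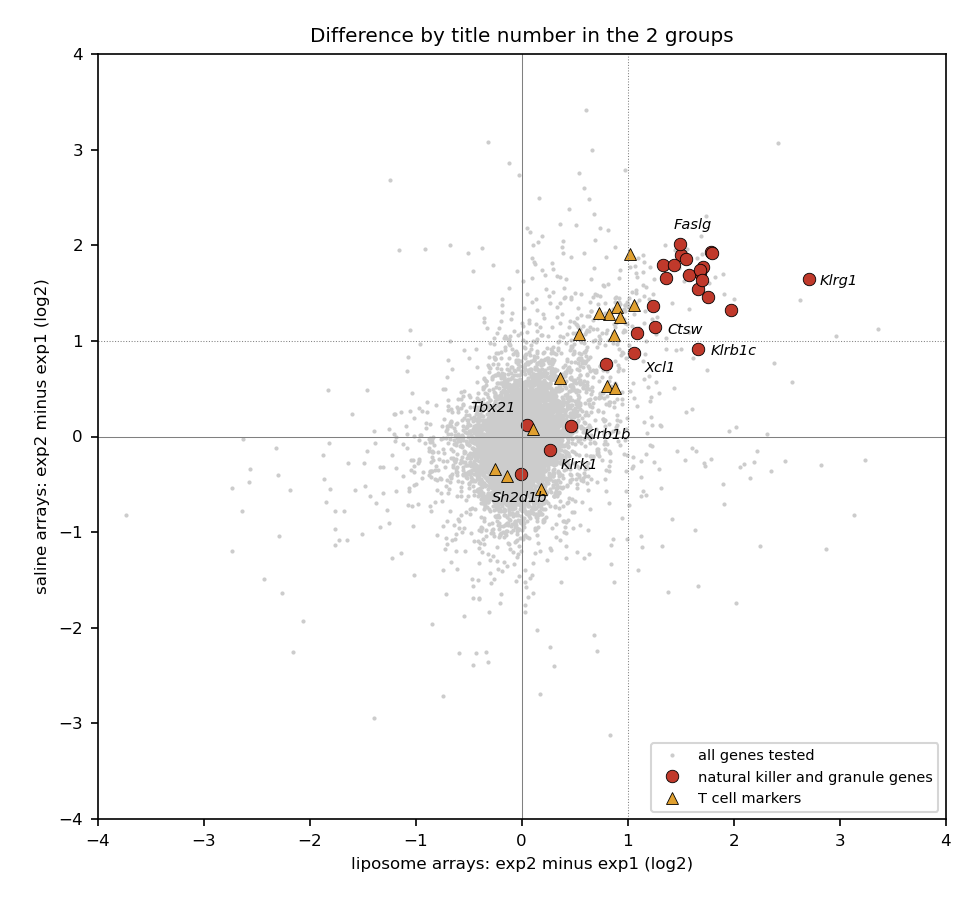
Exp2 minus exp1 difference within liposome (horizontal axis, log2) against that within saline (vertical axis, log2), for all genes tested (grey), the 27 natural killer and granule genes (red circles) and the T cell markers (orange triangles). The 20 circles beyond both dotted lines differed at least 2-fold in both groups, and 5 grey genes lie outside the axis limit of 4.

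Between the treatments none of the 27 genes passed the test, at a limma adjusted p of 0.05, where 8.89% of all 12858 genes did. None rose, against 4.83% of all genes, and none fell, against 4.06%, a split of 621 higher and 522 lower genes that became 852 and 442 with scaling to the median. One gene, Klrb1b, was below 0.05 without adjustment, against 32.5% of all genes. The adjusted p ran between 0.0771 and 0.774, with a median of 0.307. The mean was nonetheless lower on the liposome arrays for 25 of the 27, against 53.9% of all genes, and at least 2-fold lower for 18, against 3.21%. The 2 higher genes were Ctsw and Xcl1, and with scaling to the median Sh2d1b and Tbx21, both near 0, turned as well. The median difference of the 27 was -1.27, against -0.04 for all genes tested. Both liposome arrays lay below both saline arrays for 4 of 27, Klrb1b, Klrc3, Klrk1 and Klri1, against 35.1% of all genes. None had both liposome arrays above both saline arrays, against 30.4% of all genes.

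Taken within a number, 1 array against 1 array, liposome read below saline in both numbers for 24 of the 27, against 42.5% of all genes. It was at least 2-fold below in both for 14 of the 27, against 1.95%. The median liposome minus saline difference of the 27 was -1.11 within exp1 and -1.21 within exp2. The SEs of the 27 genes, which include the gap between exp1 and exp2 of each group, had a median of 0.79. The median of the 27 was -0.48 without liposome 1 and -0.49 without saline 2, but -2.00 without liposome 2 and -2.00 without saline 1. A single array therefore moved it by more than 1.5 times.

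**Figure D4:**
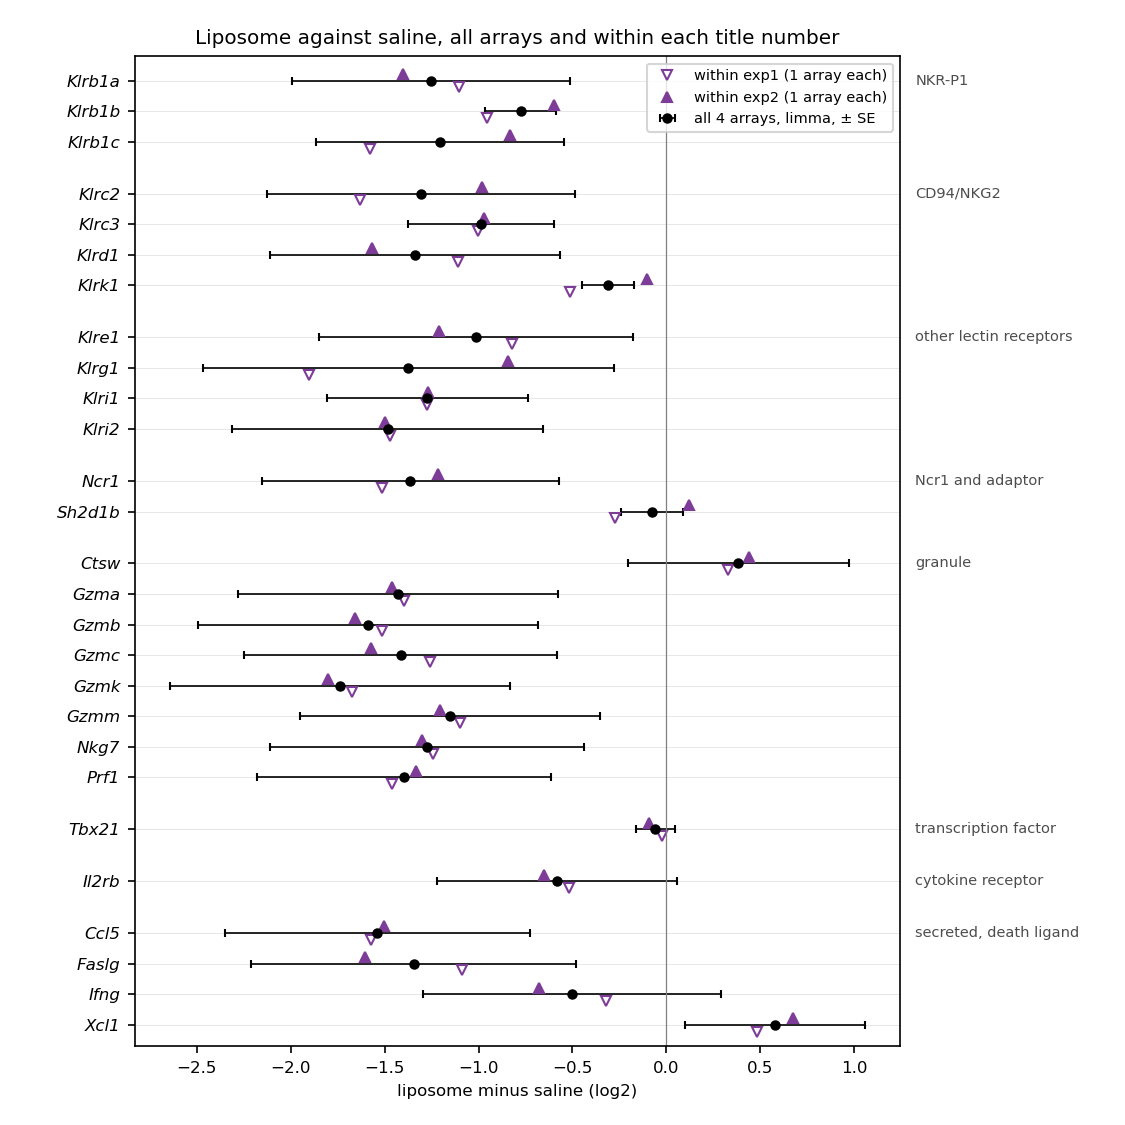
Liposome minus saline difference (log2) of each of the 27 genes over all 4 arrays with its SE from limma (black), and within exp1 (open triangles) and exp2 (filled triangles), 1 array against 1 array. At or below -1 lie 18 genes, Ctsw and Xcl1 lie above 0, and no adjusted p was below 0.05.

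Other genes of the pathway, from lists chosen by function, shared the difference by number only in part. Among 19 measured adaptor and signalling genes, 1 fell on the liposome arrays, against 4.06% of all genes tested. None rose, against 4.83%, and 18 did not pass the test. As 8.89% of all genes passed, 1 of 19 is no excess. The gene that fell was Lat2, an adaptor also used by mast and B cells, which differed by -0.60 ± 0.11 (SE, n = 2 each; limma adjusted p = 0.0476). Of the 19, 6 were at least 2-fold higher on exp2 in both groups, against 0.661% of all genes. Sh2d2a, an adaptor of activated lymphocytes, read 218 and 612 on liposome arrays, against 327 and 1112 on saline arrays. Sh2d1a, the adaptor SAP, read 329 and 733 on liposome arrays, against 476 and 1684 on saline arrays. Lck, the kinase at T and natural killer cell receptors, read 356 and 748 on liposome arrays, against 306 and 1055 on saline arrays. All 3 were highest on saline 2. The receptor adaptors that myeloid cells also use varied little, and they are named here after their values were seen. Tyrobp read 219747 and 233666 on liposome arrays, against 218409 and 222312 on saline arrays, and Fcer1g read 117615 and 128538 on liposome arrays, against 111887 and 114116 on saline arrays.

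Of 13 other receptor genes, 1 rose and 2 fell, against 4.83% and 4.06% of all genes tested, and 10 did not pass the test. Fcgr3a, the low-affinity IgG receptor that natural killer cells share with myeloid cells, read 1321 and 1606 on the liposome arrays, against 7156 and 7577 on the saline arrays. It differed by -2.34 ± 0.14 (SE, n = 2 each; limma adjusted p = 0.00837), and exp2 minus exp1 was only 0.28 within liposome and 0.08 within saline. Slamf7, a SLAM-family receptor, fell to 255 and 233 on liposome arrays, against 499 and 468 on saline arrays. Klra5, a receptor of the Ly49 family, rose to 166 and 176 on liposome arrays, against 73.9 and 71.8 on saline arrays. That family was left out of the natural killer and granule gene list described first, and Klra5 does not stand for its other genes. Cd2 was the one of the 13 that was at least 2-fold higher on exp2 in both groups, against 0.661% of all genes. Cd96 and Cd69, receptors of natural killer and activated T cells, differed by -1.44 and -0.73 between liposome and saline without passing the test. Cd96 was dim, at 17.7 and 40.8 on liposome arrays, against 58.7 and 91.0 on saline arrays.

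Among 11 measured chemokine and migration genes, 2 fell and 0 rose, against 4.06% and 4.83% of all genes tested, and 9 did not pass. S1pr5, the sphingosine-1-phosphate receptor that lets mature natural killer cells leave tissues, read 354 and 371 on liposome arrays, against 1088 and 860.2 on saline arrays. Cx3cr1, the fractalkine receptor of mature natural killer cells and monocytes, read 954 and 1001 on liposome arrays, against 2165 and 1740.2 on saline arrays. Both fell with narrow spread, by -1.41 ± 0.15 and -0.99 ± 0.14 (SE, n = 2 each; limma adjusted p = 0.0216 and 0.0361). Ccl4, in contrast, read 1166 and 2698 on liposome arrays, against 1686 and 5738 on saline arrays, in the order of the granzymes. Cxcr6 and Cd27, receptors of effector and immature lymphocytes, were also higher on exp2 in both groups.

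None of 12 transcription factors and none of 9 cytokine receptors passed the test, and no ligand of the receptors among 9 measured did (limma, with 3, 3 and 1 below 0.05 unadjusted). Of all genes tested, 8.89% passed and 32.5% were below 0.05 unadjusted, so 0 in lists this short says little. Bcl11b, Gata3 and Tcf7, factors of T and innate lymphoid cells, were at least 2-fold higher on exp2 in both groups, against 0.661% of all genes. Gata3 read 115 and 233 on liposome arrays, against 125 and 341 on saline arrays. Il7r, Il12rb1 and Il12rb2 had the highest signed exp2 minus exp1 differences among the cytokine receptors, with none of the 9 at 2-fold in both groups. Among the ligands Pvr had the highest signed exp2 minus exp1 difference, at 0.18 within liposome and 0.26 within saline, followed by Cd48 and RT1-M3-1.

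Of 14 granule release and processing genes, 1 rose and 3 fell, against 4.83% and 4.06% of all genes tested, and 10 did not pass. None was 2-fold higher on exp2 in both groups, against 0.661% of all genes. Rab27a, which docks granules at the membrane, read 8446 and 7824 on liposome arrays, against 14078 and 13694 on saline arrays. Stx11, a syntaxin of granule release, read 672 and 742 on liposome arrays, against 1461 and 1245 on saline arrays. Lamp1, a membrane protein of lysosomes and granules, rose to 14520 and 14457 on liposome arrays, against 8271 and 6416 on saline arrays. The readings of Rab27a, Stx11 and Lamp1 did not follow the order of the granzymes, while those of Serpinb9 did. Srgn, Serpinb9 and Unc13d differed by -0.70, -0.61 and -0.37 between liposome and saline and did not pass.

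Markers of other cells in the fraction moved with the number or with the treatment. The T cell list had 15 measured genes of 18. None passed the limma test between treatments, against 8.89% of all genes tested, and 2 were below 0.05 unadjusted, against 32.5%. On exp2, 12 were higher in both groups, against 24.6% of all genes tested, and 2 were at least 2-fold higher, against 0.661%. Their median exp2 minus exp1 difference was 0.80 within liposome and 1.06 within saline, and their median liposome minus saline difference 0.00. Cd3e read 506 and 1054 on liposome arrays, against 401 and 1042 on saline arrays. Trat1, which was dim at 25.9 to 97.1, and Cd3d were also highest on exp2. Cd3e, Trat1 and Cd3d had the largest mean exp2 minus exp1 differences of the list. Others, named here after their values were seen, went the other way. Cd4 and Cd8b differed by -0.13 and -0.26 within liposome and by -0.41 and -0.34 within saline, and Foxp3 by -0.54 within saline alone. The summed T cell reading was 24061 and 41521 on liposome arrays, against 22202 and 47830 on saline arrays. The sum over the 27 genes was 79722 and 163117 on liposome arrays, against 140700 and 358570 on saline arrays. Tbx21 and Ccl5 were its largest terms on every array. Tbx21, which barely varied, gave 38366 and 39667 of it on liposome arrays, and 38935 and 42367 on saline arrays. The sum therefore understates how far most of the 27 genes differed. The part of T cells in the number difference was not tested.

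Of the 11 measured B cell markers none passed the limma test, against 8.89% of all genes, and 8 were below 0.05 unadjusted, against 32.5%. None was higher on exp2 in both groups, against 24.6% of all genes. Their median liposome minus saline difference was -0.68. Of 9 neutrophil markers 6 fell, of 8 erythroid markers 6 fell, and of 8 dendritic markers 4 fell, against 4.06% of all genes. Ngp, a neutrophil granule protein, differed by -1.31 and Hbe2, a globin, by -1.65. Clec10a, a lectin of dendritic cells and macrophages, differed by -1.99. Of 11 macrophage markers 7 fell and 1, Mertk, rose, against 4.06% and 4.83% of all genes. The other 3, Cd68, Adgre1 and Csf1r, did not pass. Of these, Cd68 read higher on the liposome arrays, at 58147 and 55749, against 37620 and 30119 on saline arrays, and Adgre1 and Csf1r had lower means there. Cd5l, a factor of splenic macrophages, read 151 and 129 on liposome arrays, against 558 and 665 on saline arrays. The erythroid, neutrophil and dendritic medians by number lay between 0.01 and 0.15 in both groups. The macrophage median by number was -0.24 within liposome and 0.19 within saline. The part of these cell types in the difference by treatment was not tested.

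**Figure D5:**
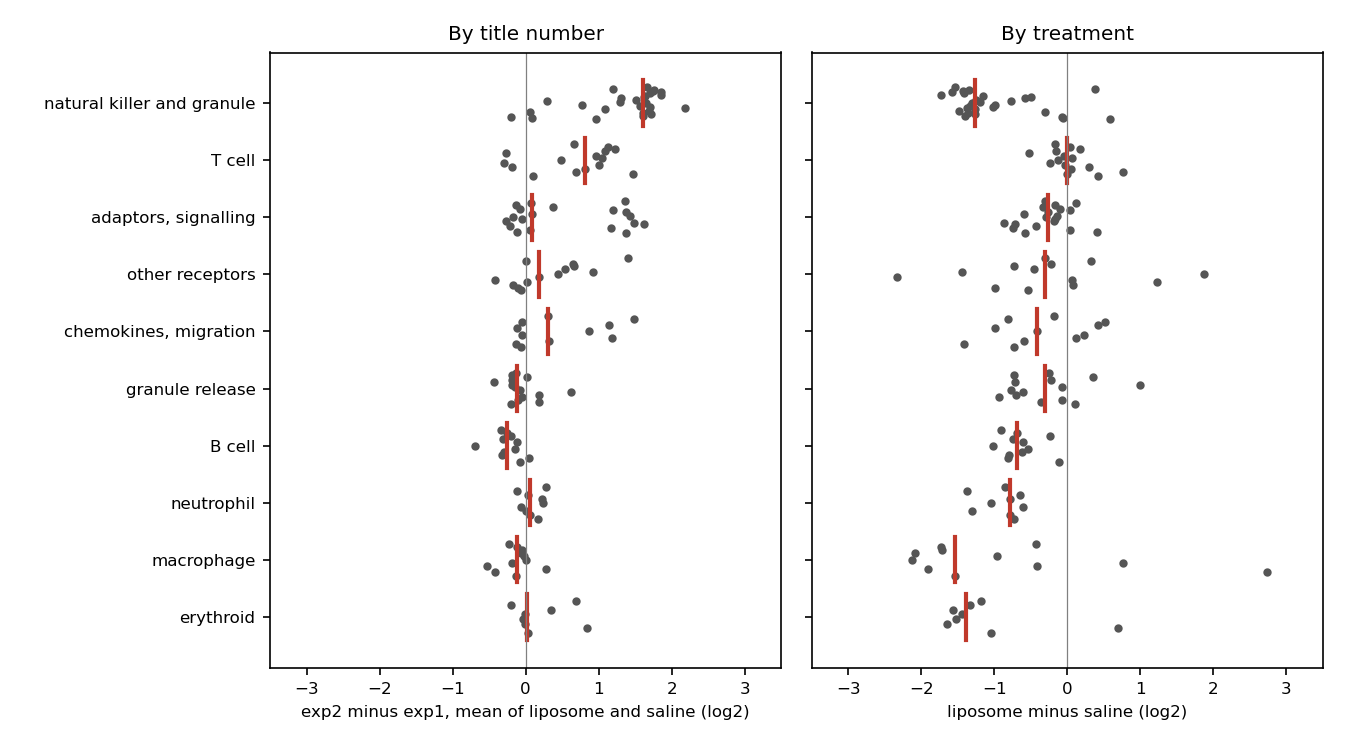
Each point is 1 measured gene of a list and the red bar the list's median, by title number (left, exp2 minus exp1 averaged over both groups, log2) and by treatment (right, liposome minus saline, log2). By number the natural killer and granule genes lie highest and the T cell markers next, and by treatment the T cell median is at 0.00 while that of the natural killer and granule genes is -1.27.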

How the data were processed

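The 4 arrays carry Cy3-labelled cRNA from 0.2 ug of total RNA, per the labels' protocols. Each deposited file holds scanner intensity values, which the authors extracted (Agilent Feature Extraction 10.7.3.1 in the submitters' processing notes), and coordinates are in rn4, per the file headers. All arrays shared 1 slide and 1 scan, so these were no batches. Between 61.3% and 66.3% of spots were well above background and none was saturated.

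Here log2 processed intensity was centred on each array's 75th percentile, without control and outlier spots, replicate spots were averaged by probe, and the brightest passing probe stood for a gene. A probe passed when the background flag was cleared on both liposome or both saline arrays. Printed intensities were multiplied back by the arrays' geometric mean 75th percentile. Liposome and saline were compared with limma 3.58.1 in R 4.3.3 (lmFit, eBayes), with Benjamini-Hochberg adjustment over 12858 genes and a threshold of 0.05. The fit was tested on simulated data. All 30 members are named. Of each further list, up to 4 genes past the threshold and up to 3 with the largest mean exp2 minus exp1 difference could be named. Members and lists were chosen with earlier results of these data known. Alternatives were another scaling, background correction, filter, probe rule, each array left out and the title number as a block. Results for some genes are not reported here.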

Additional observations from a re-analysis of the deposited data

How the results depend on the processing

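The number of genes called of 12858 was 1143, of which 621 were higher and 522 lower on the liposome arrays. With scaling to the median it was 1294, 852 higher and 442 lower, and the median of all genes was 0.05 in place of -0.04. It was 1720 with normexp background correction (offset 50). With no filter on dim probes it was 0 of 21971, with a smallest adjusted p of 0.143 and 3005 genes below 0.05 unadjusted. Leaving out 1 array gave 0 to 499 calls by limma, with 0 without either liposome array (2177 and 2397 genes below 0.05 unadjusted), 499 without saline 1 and 372 without saline 2, where the lone array is assumed to vary like the other group's. In those fits (with 0 to 11 of the 27 members below 0.05 unadjusted) and under the other scalings, filters and probe rules no member was called, and the members' median ranged between -2.00 and -0.48 over the arrays left out.

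The shared title numbers gave a fit with the number as a replicate block, in which 1816 of 12858 genes were called (14.1%; 828 higher, 988 lower) and 20 of 27 members fell, with the members' median at -1.27 as before. Whether the numbers pair the arrays is not established: the labels do not say what they mark, there are 2 pairs, and deviations from the group means correlated at 0.355 for same-numbered arrays over all genes, which are not replicates. The other 7 members, Klrg1, Klrk1, Sh2d1b, Ctsw, Tbx21, Xcl1 and Ifng, were not called in it.

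Directions of single members turned in few fits. With median scaling Sh2d1b was 0.0043 and Tbx21 0.0225. Over the arrays left out Ctsw ran between -0.24 and 1.01, Ifng between -1.40 and 0.40, Il2rb between -1.27 and 0.099, Sh2d1b between -0.27 and 0.12 and Tbx21 between -0.12 and 0.0028. A second passing probe, tried after seeing the data for Gzmc, Klrk1, Gzmb and Xcl1, kept the direction of all 4. With 2 arrays a group, the number of arrays limits the precision.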

Other observations

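Beside the 20 members, 65 other genes were at least 2-fold higher on exp2 in both groups. Those named here were chosen after their values were seen, and none of their treatment differences passed the limma test. Il17a, the cytokine of type 17 lymphocytes, read 142 and 475 on liposome arrays, against 25.3 and 125 on saline arrays. It shared the exp2 excess and was, like Xcl1, higher on liposome than on saline within each number, with a difference of 2.21 ± 0.99 (SE, n = 2 each; limma adjusted p = 0.209). Il22, a further cytokine of such cells, read 85.3 and 201 on liposome arrays, against 50.1 and 141 on saline arrays.

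Genes of eosinophil granules also stood among the 65. Prg2, the major basic protein, read 4411 and 12339.5 on liposome arrays, against 4074 and 9109.6 on saline arrays. Epx, eosinophil peroxidase, read 80.6 and 241 on liposome arrays, against 78.0 and 166 on saline arrays. Mcam, an adhesion molecule, read 29.7 and 105 on liposome arrays, against 121 and 382 on saline arrays, with a difference of -1.94 ± 0.85 (SE, n = 2 each; limma adjusted p = 0.201).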
